A study of Mus musculus with 24 samples.

Results

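Prkg2, which encodes cyclic GMP-dependent protein kinase II, was followed through 24 mouse thyroid arrays. The platform annotation gives Prkg2 to 2 probe sets, 1435162_at and 1421354_at, of 22690 on the array, and it is 1 of 12394 genes represented. The gene was chosen by its measured log2 levels in these tissue groups, so its levels and differences between groups are a description and carry no test. The arrays hold 9 recurrent tumours (3 with JK in the title and 6 titled by a bare number), 5 anaplastic thyroid carcinomas (ATC; 2 JK and 3 bare number), 4 papillary thyroid carcinomas (PTC; all JK) and 6 pools of normal thyroid glands (4 titled JK and WT, 2 titled Cre), with one Affymetrix Mouse430A_2 array a sample. The glands came from several mouse models, and the labels give no genotype, strain, age or treatment for a tumour, nor what recurrent tumours returned after. The series title names resistance of anaplastic thyroid cancers to BRAF inactivation as its subject, and which tumour had which BRAF allele is not given in the labels. Normal samples are pools and tumours are not described as pools, so the spread between normal arrays is between pools. No label says that tumours of a group came from separate mice, so that p-values measure the spread between these arrays.

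Cyclic GMP is made by soluble guanylyl cyclases, which nitric oxide activates, and by receptor guanylyl cyclases, which natriuretic peptides and guanylins activate. It binds cyclic GMP-dependent kinases, channels and phosphodiesterases, and the phosphodiesterases break it down. The kinase encoded by Prkg2 is held at membranes through its myristoylated end, and in other tissues it is known for chloride secretion in the intestinal epithelium, through the channel Cftr, and for the growth of long bones, where it acts in chondrocytes downstream of C-type natriuretic peptide. The paralogous kinase of Prkg1 is known from smooth muscle and platelets.

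Array medians ran from 7.38 to 7.58 on the log2 scale, and single values ran from 2.71 to 14.96. Thyroglobulin (Tg), the thyroid hormone precursor that marks follicular cells, checked the tissue labels. It ran from 4.61 to 14.18 in recurrent tumours, from 4.46 to 13.48 in ATC and from 13.11 to 14.24 in PTC, against 14.80 to 14.96 in normal pools. Recurrent tumours 1 and 4 (Tg 11.31 and 14.18) and ATC 4 (13.48) stood above the others of their groups, which lay at or below 5.98. Arrays have no read depth, and precision is limited by how many there are. In bulk tissue, fewer cells of a type and less RNA per cell cannot be told apart.

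Prkg2 had its highest signal in ATC, lower and far more variable signal in recurrent tumours, an intermediate signal in PTC and its lowest in normal thyroid. All levels here are log2 intensities, and 1435162_at, the probe set with the higher mean over all arrays, is given first. In the 9 recurrent tumours the lowest value was 5.22, the median 9.89 and the highest 12.81. In the 5 ATC it read 13.28, 12.76, 12.71, 13.39 and 13.05. Recurrent tumours spanned 7.60 log2 units, a 194-fold range, while the ATC arrays lay within 1 log2 unit of each other. In the 4 PTC it read 8.08, 6.78, 8.26 and 8.25, against a lowest value of 3.79, a median of 4.19 and a highest of 4.97 in the 6 normal pools. PTC 2 was the low array of its group, and all 4 PTC lay above every normal pool.

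**Figure D1:**
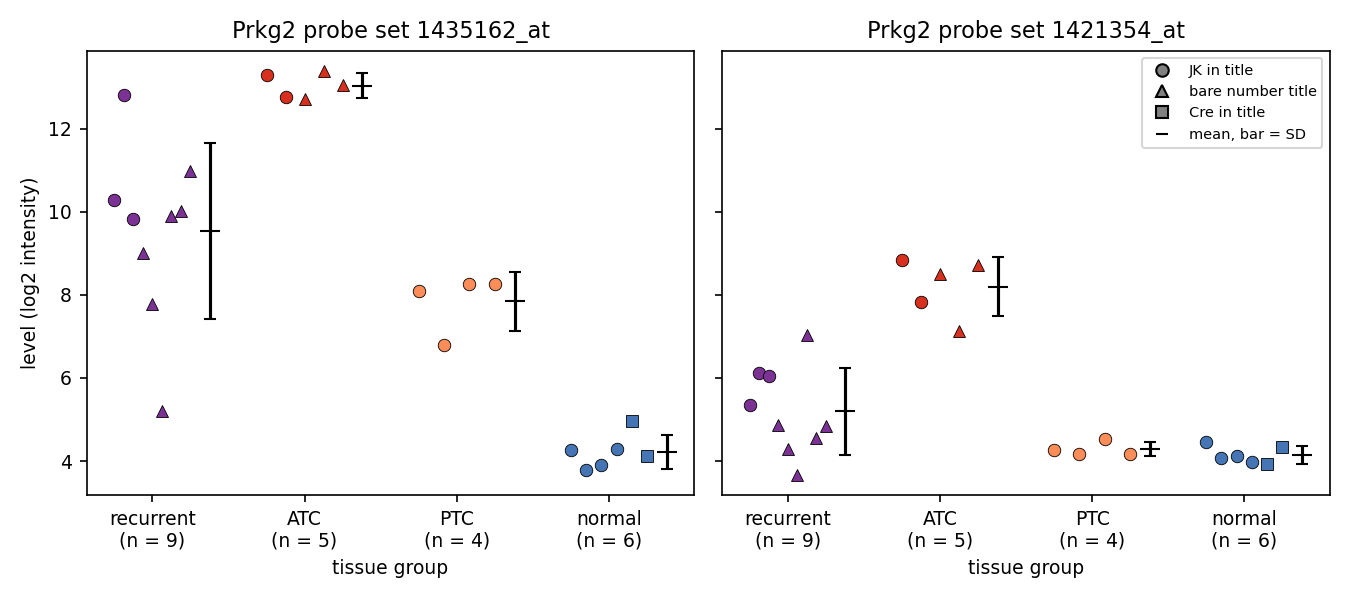
Log2 intensity of Prkg2 on each of the 24 arrays by group, with 1435162_at on the left and 1421354_at on the right. Points are arrays, coloured or marked by title, and bars give the mean and SD. On 1435162_at the ATC arrays sit between 12.71 and 13.39 and the recurrent tumours are spread from 5.22 to 12.81. On 1421354_at the PTC lie in or just above the range of the normal pools.

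On 1435162_at the mean was 9.54 ± 2.12 in recurrent tumours (SD, n = 9), 13.04 ± 0.30 in ATC (n = 5), 7.84 ± 0.71 in PTC (n = 4) and 4.22 ± 0.41 in normal pools (n = 6). ATC exceeded normal by 8.81 log2 units, a 450.2-fold ratio of signals, ATC exceeded PTC by 5.19 and PTC exceeded normal by 3.62. None of these 3 pairs of groups overlapped on this probe set. All arrays of the first group lay above all of the second for 14.9% of all genes in ATC against normal, for 15% in ATC against PTC and for 14.6% in PTC against normal. Within an array, Prkg2 lay between percentiles 98.2 and 99.1 of all probe sets in ATC and between 4.31 and 19.1 in normal pools, near the bottom of the scale. No detection calls were used here, so a fold against normal is a ratio of array signals and not a measured ratio of RNA.

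Recurrent tumours exceeded normal by 5.31 log2 units, a 39.75-fold ratio of signals. All 9 recurrent tumours lay above all 6 normal pools, an arrangement seen for 2.9% of genes. The lowest of them was recurrent tumour 6 at 5.22, and the highest pool read 4.97. Set against ATC, recurrent tumours were lower by 3.50 log2 units, an 11.33-fold lower signal. Recurrent tumour 2, at 12.81, lay within the ATC range and the other 8 lay below it. Set against PTC, recurrent tumours were higher by 1.69 on average, and 7 of 9 lay above all PTC, 1 lay within their range and 1 below it. The order of the group means was therefore ATC, recurrent, PTC and normal, and the neighbours recurrent and PTC, and recurrent and ATC, were not separated array by array.

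The second probe set, 1421354_at, gave lower values and smaller differences. Its lowest, median and highest values in recurrent tumours were 3.66, 4.87 and 7.03, against 8.83, 7.83, 8.49, 7.12 and 8.73 in ATC. It read 4.28, 4.18, 4.54 and 4.16 in PTC, against 3.92, 4.10 and 4.45 as the lowest, median and highest of the normal pools. On this probe set all 5 ATC stood above all other arrays, and PTC did not stand apart from normal.

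Means on 1421354_at were 5.19 ± 1.05 in recurrent tumours (SD, n = 9), 8.20 ± 0.72 in ATC (n = 5), 4.29 ± 0.17 in PTC (n = 4) and 4.14 ± 0.21 in normal pools (n = 6). ATC exceeded normal by 4.05 log2 units, 16.62-fold, against 450.2-fold on 1435162_at. PTC exceeded normal by 0.14, 1.105-fold, against 12.31-fold on the other probe set, and 3 of 4 PTC lay within the normal range. Recurrent tumours exceeded normal by 1.05, with 7 of 9 above all pools, 1 within their range and 1 below it. Only the step between recurrent tumours and ATC was of like size on both, at -3.01 here and -3.50 there, and on 1421354_at all 9 recurrent tumours lay below all ATC, an arrangement seen for 0.686% of genes. The higher level of PTC over normal and most of that of recurrent tumours over normal thus rest on 1435162_at.

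Across 24 arrays the 2 probe sets followed each other with a Pearson r of 0.83 and a Spearman rho of 0.87, a description in which the points share group means and normalization. Within the 9 recurrent tumours r was 0.65 and rho 0.53, and within the 6 normal pools r was -0.35 and rho -0.43. The gap between the probe sets, 1435162_at minus 1421354_at, had a median of 4.14 in recurrent tumours, 4.45 in ATC and 3.76 in PTC, against -0.20 in normal pools. The gap varied most among recurrent tumours, from 1.56 to 6.68. Recurrent tumour 7 had the highest 1421354_at value of its group, 7.03, with a middle 1435162_at value of 9.89, while recurrent tumour 2, at 12.81 on 1435162_at, read 6.13. The Gapdh control probe sets, which compare the 3 prime and 5 prime ends of one transcript, differed by 1.11 to 1.60 in PTC. Elsewhere that difference ran from 0.36 to 1.07 in JK recurrent tumours, -0.02 to 0.17 in the other recurrent tumours, 0.82 to 0.96 in JK ATC, 0.07 to 0.15 in the other ATC and 0.64 to 0.98 in normal pools, and its part in the gap between the Prkg2 probe sets was not tested.

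**Figure D2:**
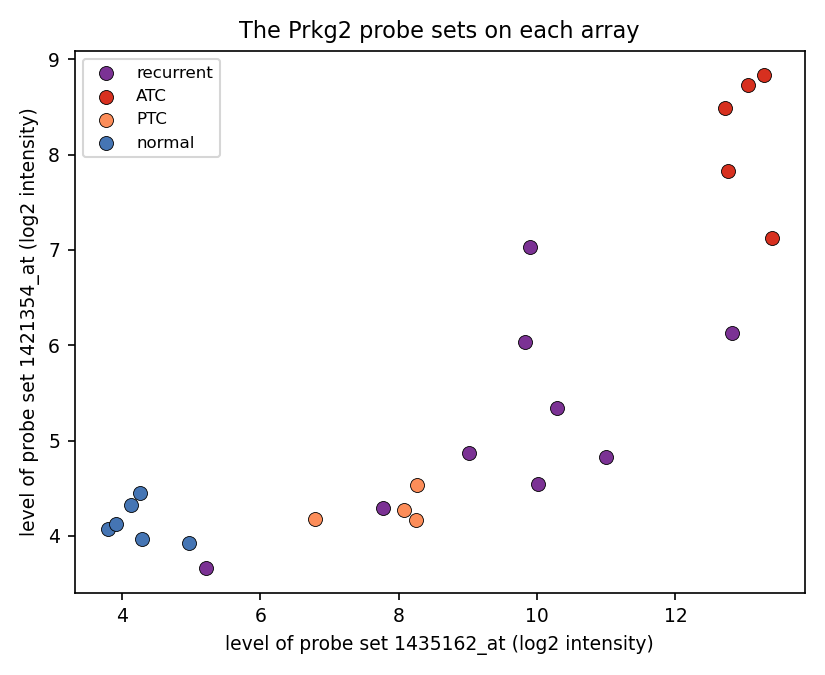
The 2 Prkg2 probe sets against each other, 1435162_at on the horizontal and 1421354_at on the vertical axis, both as log2 intensity with 1 point per array and colours by group. PTC and normal pools share a low range on the vertical axis, 3.92 to 4.54, while on the horizontal axis the PTC begin at 6.78 and the pools end at 4.97.

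The title series did not separate Prkg2 in ATC. JK arrays averaged 13.02 and bare-number arrays 13.05 on 1435162_at. Among recurrent tumours the 3 JK arrays averaged 10.97 and the 6 bare-number arrays 8.82, and the ranges overlapped (9.83 to 12.81 and 5.22 to 10.99). Normal pools averaged 4.06 with JK in the title and 4.54 with Cre. Within JK arrays alone the differences were 8.96 for ATC over normal, 3.78 for PTC over normal, 5.17 for ATC over PTC, 6.91 for recurrent over normal and -2.05 for recurrent against ATC. Within bare-number arrays recurrent tumours stood 4.23 below ATC.

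The SD of Prkg2 among recurrent tumours, 2.12, was larger than the SD of any other group (0.30 in ATC, 0.71 in PTC and 0.41 in normal pools). Recurrent tumours 1 to 9 read 10.28, 12.81, 9.83, 9.01, 7.77, 5.22, 9.89, 10.02 and 10.99. Tumour 2, the highest, also had the only recurrent Braf level in the ATC range, 11.14, where the other recurrent tumours lay between 5.62 and 7.14. Braf, the kinase whose inactivation the series concerns, ran from 10.29 to 11.98 in ATC and averaged 7.78 ± 0.15 in PTC (SD, n = 4) and 6.25 ± 0.29 in normal pools (n = 6). Tumour 6, the lowest in Prkg2, read 5.91 for Braf and 9.97 for Dusp6, the phosphatase induced by ERK signalling, the lowest Dusp6 value of the group. Tumour 4, with Tg at 14.18, had 9.01 for Prkg2, below the group median. Among ATC the array with Tg at 13.48 had the highest Prkg2 value, 13.39. List means here have each gene centred on its mean over all arrays. In tumour 4 the parathyroid list mean was 3.42, against 2.82 to 3.36 in normal pools. Its C-cell list mean was 1.45, against 1.80 to 3.78 in the pools, and its endothelial list mean 0.73, against 0.31 to 0.80. Each was the highest of the recurrent tumours. Tumour 1, with Tg at 11.31, had a parathyroid list mean of -2.34, and tumour 5, with Tg at 4.84, had 2.75. The highest parathyroid list mean among ATC was 2.67, and only 2 genes of this list were measured. In tumour 4 the thyroid follicular list mean was 0.45, against 2.34 to 2.72 in normal pools. Whether tumour 4 included normal tissue was not tested.

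Within the 9 recurrent tumours Prkg2 was set against the mean of 6 gene lists, each gene centred on its mean over 24 arrays, with exact two-sided permutation tests adjusted over the 6 lists. Prkg2 and the lists were chosen with results of these arrays known, so that these p-values describe the 9 tumours and are no independent support for a relation. The list of 17 MAPK output genes, transcripts induced by ERK signalling, rose with Prkg2. Its mean was highest in tumour 2 (1.42) and lowest in tumour 6 (-0.996). Pearson r was 0.89 (exact permutation p = 0.00211, adjusted p = 0.00595, n = 9) and Spearman rho 0.88 (exact permutation p = 0.00308, adjusted p = 0.0185). Without tumours 2 and 6, the farthest from the median, r was 0.79, and within the 6 bare-number tumours it was 0.87 (exact permutation adjusted p = 0.0417). With 1421354_at in place of 1435162_at r was 0.40 (exact permutation adjusted p = 0.431), so the relation held on 1 of the 2 probe sets. Plaur, named below, is a member of this list.

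The list of 13 mitosis genes gave r = 0.88 (exact permutation adjusted p = 0.00595, n = 9), but rho was 0.65 (exact permutation adjusted p = 0.133). Within the 6 bare-number tumours, which include tumours 5 and 6, r was 0.99 (exact permutation adjusted p = 0.0167). Over all recurrent tumours but 6 and 5 it was 0.38, and without tumour 6 alone 0.68 (exact permutation adjusted p = 0.148, n = 8), so the value over 9 tumours rests on the lowest tumours. The list of 15 epithelial genes gave r = -0.89 over all 9 tumours (exact permutation adjusted p = 0.0025), -0.87 in bare-number tumours (exact permutation adjusted p = 0.025, n = 6) and a rho of -0.72 (exact permutation adjusted p = 0.111, n = 9). On this list the recurrent tumours fell into separate sets. Tumours 4, 5 and 6 had means from -0.36 to 0.97 and the other 6 from -2.91 to -1.56. The values over all 9 span both sets. Within the 6 tumours with low epithelial means, a split made after seeing the data, r was -0.48 (exact permutation p = 0.361) and rho -0.03. The 3 tumours with high epithelial means were the 3 with the lowest Prkg2 values, 9.01, 7.77 and 5.22, an arrangement that was not tested.

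The remaining lists gave no relation past the threshold. Thyroid follicular genes (11) had r = -0.11 (exact permutation adjusted p = 0.853, n = 9), macrophage genes (14) r = 0.37 (exact permutation adjusted p = 0.485, n = 9) and cartilage genes (12) r = -0.06 (exact permutation adjusted p = 0.853, n = 9). The macrophage value hung on single tumours, being 0.79 without tumour 2 (exact permutation adjusted p = 0.0386, n = 8) and -0.34 without tumour 6. Cartilage genes, of interest since chondrocytes are a known site of the kinase, were highest in tumour 7 (4.18) and tumour 5 (2.51), which read 9.89 and 7.77 for Prkg2. In ATC, where Prkg2 was highest, the cartilage mean lay between -0.30 and 0.58, against -1.12 to -0.75 in normal pools, and 4 of 12 cartilage genes were called higher, where 15.1% of all genes were. The intestinal epithelium list, the other known site, ran from -0.33 to 1.77 in ATC and from -0.33 to -0.10 in normal pools, with 2 of 8 genes called higher, against the same 15.1%. Other lists moved more in ATC against normal. Called higher were 13 of 13 mitosis genes (median difference 2.35), 11 of 14 macrophage genes (2.40), 6 of 10 fibroblast genes (1.78) and 3 of 6 smooth muscle genes (1.56). Called lower, where 19.1% of all genes were, were 10 of 11 thyroid follicular genes (median difference -3.71), 4 of 5 C-cell genes (-4.33) and both parathyroid genes (-4.04). The remaining 1 C-cell gene was called higher. The macrophage mean ran from 0.69 to 1.23 in ATC, against -1.70 to -0.25 in normal pools, and the fibroblast mean from 0.31 to 1.29 in ATC, against -1.17 to -0.72 in normal pools. The part of these cell types in the Prkg2 level was not tested.

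**Figure D3:**
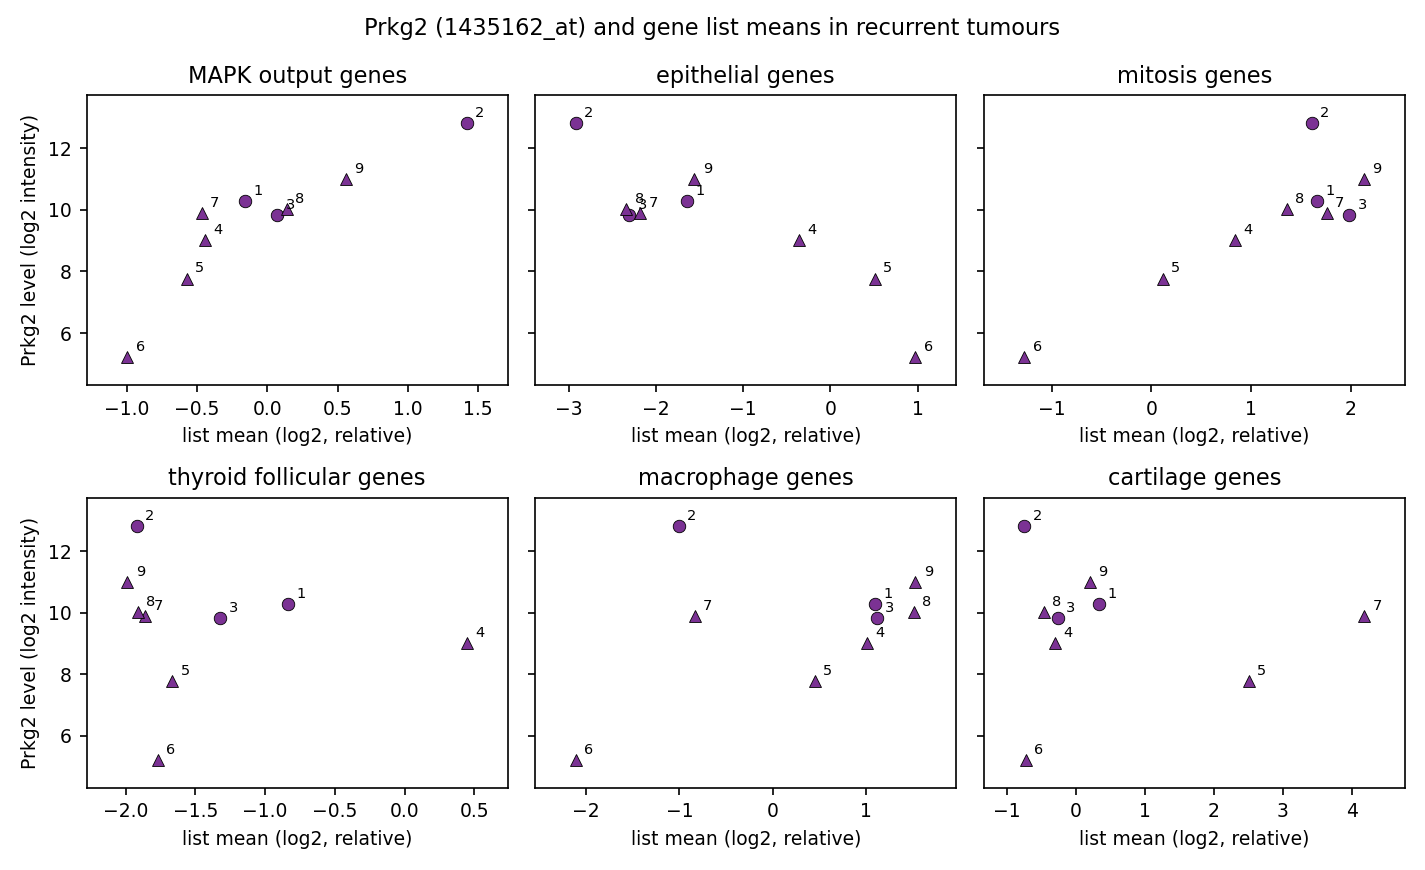
Prkg2 (1435162_at, log2 intensity, vertical axis) against the mean of each of 6 gene lists (log2, centred on all 24 arrays, horizontal axis) in the 9 recurrent tumours, numbered as in the text, with circles for JK and triangles for bare-number titles. The MAPK output and mitosis panels run upwards with r = 0.89 and 0.88, and tumours 4, 5 and 6 stand apart from the other 6 in the epithelial panel.

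The other genes of cyclic GMP signalling were read from 7 lists with 62 genes beside Prkg2, of which 49 were measured. A gene is called where the limma test across all 12394 genes gave an adjusted p under 0.05. In ATC against normal 14 of 49 were called, 7 higher and 7 lower, or 28.6% against 34.3% of all genes (15.1% higher and 19.1% lower). In PTC against normal 8 were called, 2 higher and 6 lower, or 16.3% against 14.2% (6.16% higher and 8.03% lower). In ATC against PTC 4 were called, 3 higher and 1 lower, or 8.16% against 17.2% (7.81% higher and 9.35% lower). In recurrent tumours against ATC 4 were called, all lower, or 8.16% against 4.32% (1.19% higher and 3.12% lower). In recurrent tumours against normal 14 were called, 2 higher and 12 lower, or 28.6% against 33.8% (14.5% higher and 19.3% lower). Median differences of the 49 genes lay between -0.13 and 0.05 in the 5 comparisons, where the medians of all genes lay between -0.08 and 0.05. The share of pathway genes was thus below that of all genes in 3 comparisons and above it in 2, and this difference in shares was not tested.

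**Figure D4:**
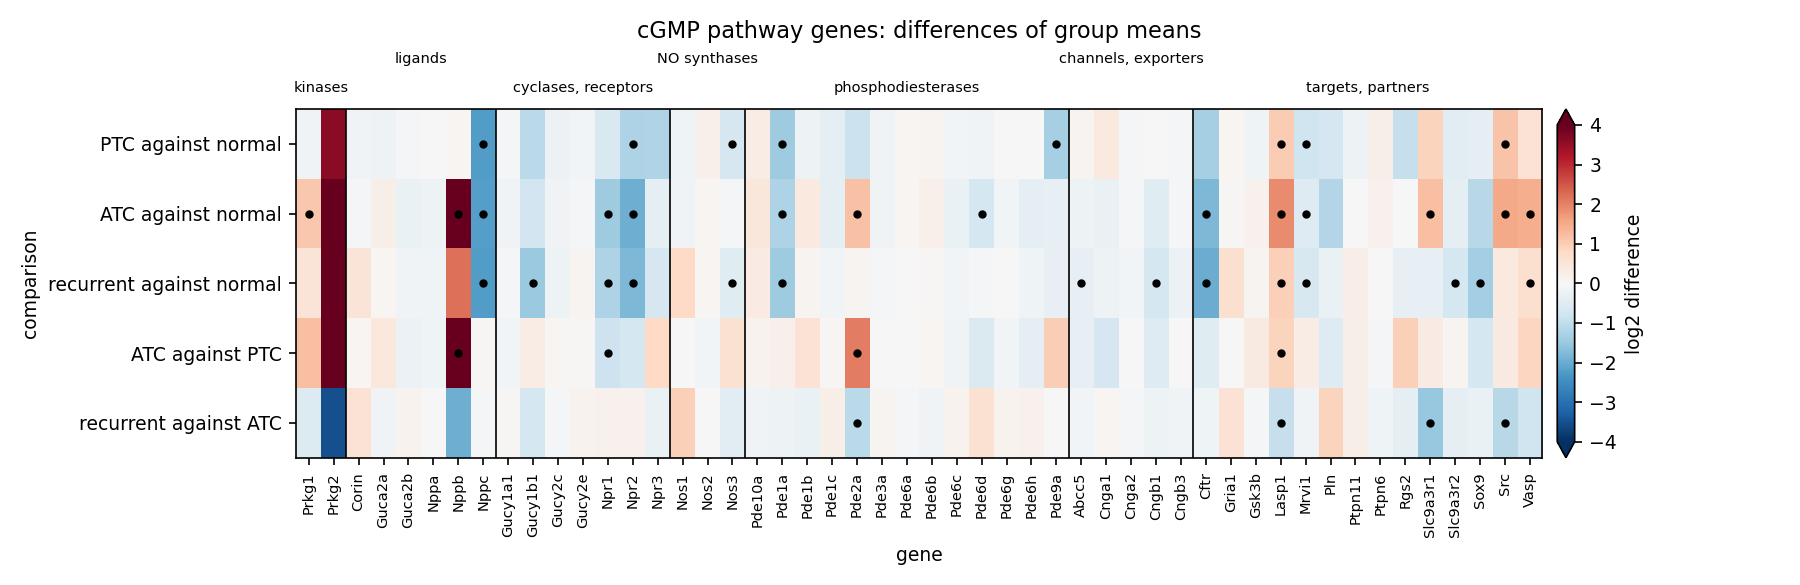
Differences of group means (log2) for Prkg2 and the other measured cyclic GMP pathway genes in 5 comparisons, the first-named group minus the second. Colours are limited to 4 log2 units on either side, and PKA genes are not drawn. Dots mark genes called by limma after Benjamini-Hochberg adjustment, and Prkg2, which was not tested, has none.

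Prkg1, the other cyclic GMP-dependent kinase, did not share the pattern in size. It ran from 4.28 to 6.61 in recurrent tumours and read 5.55, 6.64, 5.18, 7.45 and 5.56 in ATC, against 4.76 to 4.98 in PTC and 4.77 to 5.16 in normal pools. All 5 ATC lay above all PTC and all normal arrays, arrangements seen for 15% and 14.9% of all genes. Recurrent tumours overlapped with the ATC. The difference between ATC and normal was 1.07 ± 0.41 (SE), which limma called (adjusted p = 0.0466). The call was lost with the title series as a block (0.97, limma adjusted p = 0.173) and without ATC 2, without ATC 4 or without any one of the 6 normal pools (limma adjusted p = 0.0610 to 0.175). The other limma comparisons of Prkg1 were not called, with differences of 1.21 for ATC over PTC (adjusted p = 0.0688), 0.50 for recurrent over normal (adjusted p = 0.296), -0.56 for recurrent against ATC (adjusted p = 0.479) and -0.14 for PTC against normal (adjusted p = 0.908). ATC against PTC was called when only those 2 groups were fitted (limma adjusted p = 0.0442). Weighting arrays by quality led limma to call both ATC against PTC (0.93, adjusted p = 0.00368) and recurrent against normal (0.98, adjusted p = 0.00442). Over 24 arrays Prkg1 had a Pearson r of 0.54 with Prkg2.

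Among ligands, Nppb and Nppc moved in opposite directions in ATC. Nppb encodes B-type natriuretic peptide, a ligand of the receptor cyclase Npr1. It read 10.06, 8.83, 7.97, 11.59 and 7.62 in ATC, against 4.95 to 5.47 in PTC and 4.68 to 5.48 in normal pools. All ATC lay above all PTC and all normal arrays, arrangements seen for 15% and 14.9% of all genes. It rose in ATC by 4.15 ± 1.21 (SE) relative to normal (limma adjusted p = 0.0103) and by 4.08 ± 1.34 relative to PTC (limma adjusted p = 0.0387). The call against PTC was lost without any one of the 4 PTC or without ATC 1, 2 or 4 (limma adjusted p = 0.0509 to 0.100), and in JK arrays alone (4.31, adjusted p = 0.0540). In recurrent tumours Nppb was high in tumours 2, 3, 8 and 9 (12.62, 10.13, 6.92 and 11.00) and between 4.74 and 5.27 in the other 5.

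Nppc encodes C-type natriuretic peptide, the ligand of the receptor cyclase Npr2. It ran from 4.78 to 6.87 in recurrent tumours, from 5.37 to 5.86 in ATC and from 5.36 to 5.73 in PTC, against 7.07 to 8.67 in normal pools. It fell by 2.23 in recurrent tumours, by 2.19 in ATC and by 2.25 in PTC relative to normal (limma adjusted p = 1.72e-06, 1.33e-05 and 7.87e-05), with no overlap in any of these. The share of all genes lying below normal without overlap is not given here. Lying above normal without overlap was seen for 2.9% of all genes in recurrent tumours, 14.9% in ATC and 14.6% in PTC. The comparisons share the normal pools. Npr2 fell as well, by 1.79 in recurrent tumours (limma adjusted p = 6.05e-05), by 1.95 in ATC (adjusted p = 0.000105) and by 1.25 in PTC (adjusted p = 0.0202) relative to normal. The Npr2 call in PTC was lost without PTC 1, 3 or 4 (limma adjusted p = 0.0512 to 0.0619). Npr1, the receptor cyclase for A-type and B-type natriuretic peptide, was lower in ATC than in PTC by 0.82 ± 0.22 (SE; limma adjusted p = 0.0130), lost in JK arrays alone (-0.42, limma adjusted p = 0.322), with the title series as a block (adjusted p = 0.0969) and without PTC 4 (adjusted p = 0.0583). Relative to normal, limma called Npr1 lower in ATC in 16 of 16 alternatives (-1.55 to -1.01). In recurrent tumours it did so in 20 of 20 (-1.35 to -0.95). Mean Npr1 levels were low, at 4.60 in recurrent tumours, 4.42 in ATC, 5.24 in PTC and 5.84 in normal pools. Gucy1b1, the beta subunit of soluble guanylyl cyclase, fell by 1.48 ± 0.44 in recurrent tumours relative to normal (SE; limma adjusted p = 0.0128), and its second probe set differed by -0.43. Recurrent tumours 2 and 3 read 3.82 and 3.94 and the other 7 from 5.90 to 7.34, against 6.73 to 7.71 in normal pools. The difference ran from -3.03 to -0.95 over 21 alternatives, and limma called it in each.

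Among phosphodiesterases, Pde2a, which cyclic GMP itself stimulates, was higher in ATC. It read 8.97, 8.88, 8.75, 9.65 and 8.92 in ATC, against 7.33, 6.67, 6.77 and 7.16 in PTC and 7.64 to 7.95 in normal pools. The ATC arrays lay above all PTC, as for 15% of all genes, by 2.05 ± 0.36 (SE; limma adjusted p = 0.000431). PTC lay below the normal pools, an arrangement whose share over all genes is not given here. The step from normal to ATC was therefore smaller. It ran from 1.02 to 1.29 over 17 alternatives, of which limma called 16, and was not called in JK arrays alone (1.07, limma adjusted p = 0.0704). In recurrent tumours Pde2a averaged 7.96 ± 0.83 (SD, n = 9), against 9.03 ± 0.36 in ATC (n = 5), a difference of -1.08 (limma adjusted p = 0.0439). The normal pools averaged 7.85 ± 0.12 (SD, n = 6), close to the recurrent mean. Pde1a, which calcium and calmodulin activate, fell by 1.41 in recurrent tumours (limma adjusted p = 0.000576) and by 1.41 in PTC (adjusted p = 0.00813) relative to normal. In ATC it averaged 6.34, against 7.56 in normal pools, and limma called it lower in 17 of 17 alternatives (-1.75 to -1.08). Pde9a, which is specific for cyclic GMP, fell by 1.32 in PTC relative to normal (limma adjusted p = 0.0247), a call lost without PTC 1, 2 or 4 or normal pool 1 (limma adjusted p = 0.0507 to 0.0711).

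Among targets and partners of the kinases, Src, a tyrosine kinase, and Lasp1, an actin-binding protein, rose in ATC relative to normal by 1.50 ± 0.25 and 1.90 ± 0.28 (SE; limma adjusted p = 6.95e-05 and 2.05e-05). Of 8 further Lasp1 probe sets 6 had the same sign there and 2 the opposite one. Src also rose in PTC relative to normal, by 1.13 ± 0.26 (SE; limma adjusted p = 0.00533). Cftr, the chloride channel that the kinase of Prkg2 phosphorylates in the intestine, fell by 1.81 ± 0.43 in ATC (SE; limma adjusted p = 0.00236) relative to normal, and in recurrent tumours it fell by 1.99 ± 0.38 (SE; limma adjusted p = 0.000291). Its second probe set differed by only -0.11 and -0.13, and in ATC the call was lost with the title series as a block (-1.11, limma adjusted p = 0.0910). Sox9, a transcription factor of cartilage that the kinase is known to act on in chondrocytes, fell by 1.35 ± 0.39 in recurrent tumours relative to normal (SE; limma adjusted p = 0.00908), lost with that block (-0.96, limma adjusted p = 0.177). Lasp1 was also called higher in ATC than in PTC, by 0.89 (limma adjusted p = 0.0498), and lost that call without any one of the 9 arrays (limma adjusted p = 0.0546 to 0.114).

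The 4 pathway genes called in recurrent tumours against ATC were Slc9a3r1, a scaffold protein of epithelial membranes (-1.52, limma adjusted p = 0.0126), Src (-1.10, adjusted p = 0.00606), Pde2a and Lasp1 (-0.94, adjusted p = 0.0389). The recurrent and ATC arrays overlapped for each of the 4, and in simulated data with each group's own spread this comparison held more false calls than its threshold allows. With recurrent tumours and ATC fitted alone limma called 0 of 49 pathway genes and 6 had an unadjusted p under 0.05, and within bare-number arrays it called 0 with 5 such genes. The Pde2a and Lasp1 calls were each lost in 9 of 14 fits that left out 1 array. These include every fit without 1 of the 5 ATC, and the limma adjusted p ranged from 0.0502 to 0.111.

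The subunits of the cyclic AMP-dependent kinase (PKA), which binds cyclic AMP in place of cyclic GMP, were looked at for comparison, 5 of 6 being measured. Prkar1b, a regulatory subunit, averaged 12.02 ± 0.15 in PTC (SD, n = 4), against 7.47 ± 0.30 in normal pools (n = 6). It rose by 4.55 ± 0.64 (SE; limma adjusted p = 5.19e-05), and its other probe sets differed by 2.75 and 0.76. In ATC it averaged 8.20 ± 1.46 (SD, n = 5), 3.82 below PTC (limma adjusted p = 0.000366). Prkar1b thus stood highest in PTC and Prkg2 in ATC. No other PKA subunit was called in any of the 5 comparisons.

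Prkg2 lies on chromosome 5 in the RefSeq annotation of GRCm38.p6. Its 4 nearest measured genes on one side were Fgf5, Antxr2, Gk2 and Bmp2k, and on the other Hnrnpd, Hnrnpdl, Enoph1 and Sec31a. Fgf5 and Hnrnpd, the nearest measured on each side, differed by -0.07 and 0.20 between ATC and normal, where Prkg2 differed by 8.81. They lie at places -3 and 3 from Prkg2 in the order of protein-coding genes. Fgf5 averaged 4.29 in ATC and 4.36 in normal pools, near the bottom of the scale, where Prkg2 averaged 4.22 in normal pools. Hnrnpd averaged 10.95 and 10.74. Antxr2, a receptor of anthrax toxin that binds collagen, rose in ATC by 2.15 ± 0.44 relative to normal (SE; limma adjusted p = 0.000649) and by 2.42 ± 0.49 relative to PTC (adjusted p = 0.00145), and in recurrent tumours by 1.03 ± 0.38 relative to normal (adjusted p = 0.0415). Bmp2k, a kinase induced by bone morphogenetic protein, fell in PTC by 2.06 and in recurrent tumours by 1.10 relative to normal (limma adjusted p = 0.000802 and 0.00912), and was 1.44 higher in ATC than in PTC (adjusted p = 0.0150). None of the other 6 neighbours was called in any of the 5 comparisons.

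Genes with the pattern most like Prkg2 were ranked by Pearson r with 1435162_at over 24 arrays among 12393 genes, where 53 had r above 0.9 and 34 below -0.9. The 8 highest were Plat (0.959), Itgb1 (0.956), Inhba (0.948), Cttnbp2nl (0.948), Plaur (0.946), Ppp1r18 (0.942), Ddx39a (0.940) and Rab31 (0.939). Plat encodes tissue plasminogen activator, Plaur the urokinase receptor, Itgb1 an integrin subunit, Inhba a subunit of activin, Ddx39a an RNA helicase and Rab31 a small GTPase of membrane transport. The arrays share group means, which enter these values. After group means were removed, r lay between 0.751 (Inhba) and 0.886 (Cttnbp2nl) for the 8 genes, and within the 9 recurrent tumours between 0.815 (Inhba) and 0.950 (Ddx39a). The 8 were picked by r over these same arrays, so these ranges are not independent of the picking and are no further support. How many other genes reach such values was not counted. With 1421354_at over 24 arrays r was lower for each of the 8, from 0.722 (Ppp1r18) to 0.864 (Itgb1), and 4 of the 8 were among the 100 most like it.

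Plat averaged 10.42 ± 0.94 in recurrent tumours (SD, n = 9), 11.80 ± 0.54 in ATC (n = 5) and 9.01 ± 0.26 in PTC (n = 4), against 7.53 ± 0.43 in normal pools (n = 6). Its group means stood in the order of those of Prkg2. The 4 genes with the lowest r were Ndufaf3 (-0.956), an assembly factor of mitochondrial complex I, Anapc13 (-0.948), a subunit of the anaphase-promoting complex, Lyrm2 (-0.939) and 1110032A03Rik (-0.935). Ndufaf3 averaged 8.30 ± 0.44 in recurrent tumours (SD, n = 9), 7.86 ± 0.16 in ATC (n = 5), 8.54 ± 0.11 in PTC (n = 4) and 9.57 ± 0.13 in normal pools (n = 6), the reverse order. Among the cyclic GMP pathway genes the highest r was that of Vasp (0.845), an actin regulator that cyclic nucleotide-dependent kinases phosphorylate, at rank 170 of all genes, and the lowest was that of Npr1 (-0.775).

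**Figure D5:**
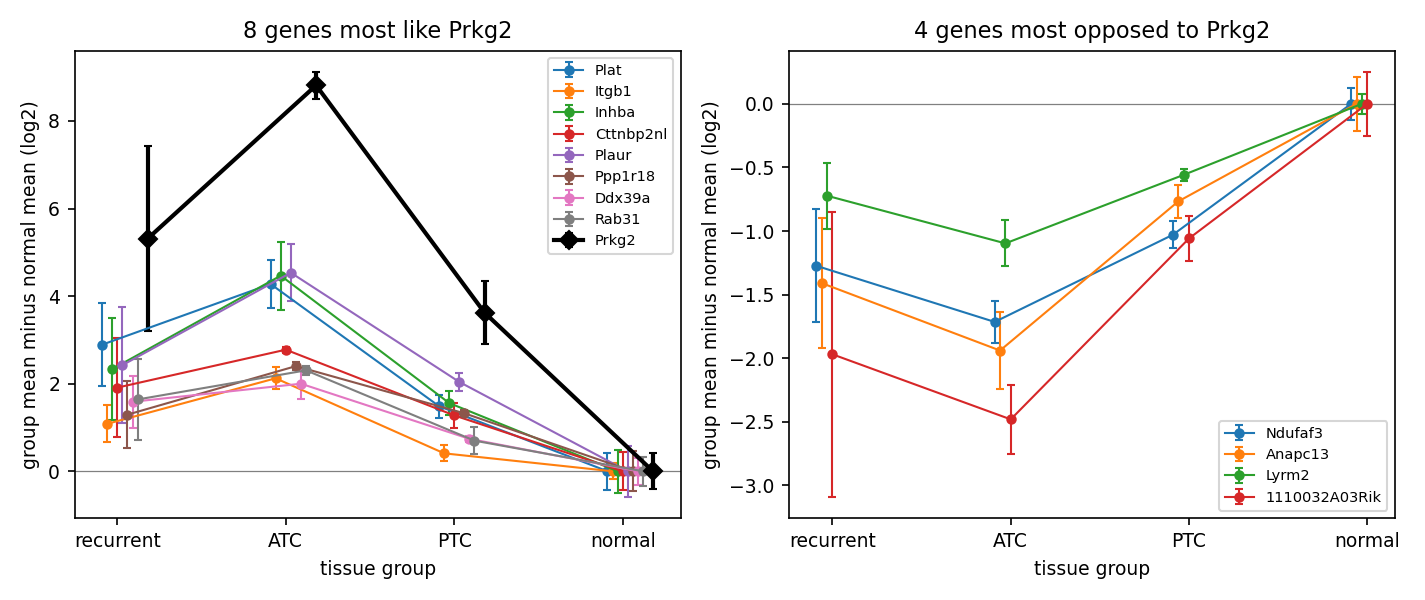
Group mean minus normal mean (log2) of Prkg2 and the 8 genes with the highest Pearson r with it on the left, and of the 4 genes with the lowest r on the right, with SD bars, over 9 recurrent, 5 ATC, 4 PTC and 6 normal arrays. The 8 are highest in ATC and lowest in normal pools, as Prkg2 is, with smaller differences, and the 4 run the opposite way.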

How the data were processed

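RNA of 24 mouse thyroid samples was measured on Affymetrix Mouse430A_2 arrays. The deposited values are log2 intensities, and per the submitters' processing notes the authors used Partek and RMA, a method that subtracts background, quantile-normalizes arrays and summarizes probes. Their versions are not given in the sources used for this work. RMA brings arrays towards 1 distribution, so a shift of all genes one way would not be seen, and high levels are compressed. Both Prkg2 probe sets of the annotation were kept. Probe sets with 1 gene symbol numbered 20393, with several 691 and with none 1606. Symbols were updated through RefSeq (GRCm38.p6) by gene identifier for 20364, and 29 were kept. For each of 12394 genes the probe set of highest mean signal was used.

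Groups follow the tissue label, and replicate numbers follow record order. Of 276 array pairs 0 were identical. A 4-group linear model was fitted to 24 arrays with limma 3.58.1 in R 4.3.3 and tested with its moderated test, with Benjamini-Hochberg adjustment over 12394 genes and calls under 0.05. The step was tested on simulated data, where it recovered the known changes, with more false calls than the threshold allows in 3 of 5 comparisons, most in recurrent tumours against ATC. Relations in the 9 recurrent tumours used exact permutations (NumPy 2.4.6), 362880 for 9 arrays. For Spearman rho with untied ranks these allow no p below 5.51e-06. SciPy 1.17.1 gave the rho between the 2 Prkg2 probe sets. Members, lists and tests were chosen with earlier results of these data known. Differences of Prkg2 between groups have no p-value for this reason. Pathway and PKA genes are named where called, up to 6 per comparison by size, Prkg1 always, with 8 genes of highest and 4 of lowest r, 4 measured neighbours on each side, and Braf, Dusp6 and Tg as context; Vasp and Npr1 were named as extremes of r after their values were seen. Alternatives were other probe sets, title series, array weights, dim genes (mean under 5) and left-out arrays. No sequence is printed.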

Additional observations from a re-analysis of the deposited data

Results flagged for a closer look

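In groups of 4 to 10 arrays, an array was marked where its gap to the nearest other array, as a share of the range, passed Dixon's critical value. Chance marks about 5% of groups, and 15 of 128 groups were marked over 32 genes and probe sets. Most of these genes were picked by r with Prkg2 or by a limma call on these arrays, so the marks are not independent of the picking. For Prkg2 itself, PTC 2 was marked low on 1435162_at, at 6.78 with the nearest PTC at 8.08.

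Recurrent tumour 2 was marked high for Braf (11.14), and it was also the recurrent tumour with the highest Prkg2 value. Recurrent tumour 6, the lowest in Prkg2, was marked low for Rab31 (7.93). ATC 4 was marked high for Tg (13.48) and Pde2a (9.65), and ATC 1 low for Pde9a (4.86). Among PTC, array 3 was marked for Ddx39a (10.11) and Pde1a (5.60), and array 4 for Prkar1b (12.24).

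Normal pool 5, titled Cre, accounted for 6 marks, being high for Inhba (8.11), Rab31 (9.04), Slc9a3r1 (10.87) and Src (8.51) and low for Anapc13 (10.74) and 1110032A03Rik (9.64). It also had the highest Prkg2 value of the pools, 4.97. Inhba, Rab31, Anapc13 and 1110032A03Rik were tested because their r with Prkg2 was among the highest or lowest over these arrays. Their marks on this pool are thus not independent of its Prkg2 value. Without any one array the difference between ATC and normal in Prkg2 stayed between 8.73 and 8.96.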

How the results depend on the processing

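Of 26 alternatives for the Prkg2 differences, apart from left-out arrays, 18 moved the value by less than 1 SD and 8 by more, and these 8 were the choice of probe set. With 1421354_at the differences were 4.05 (ATC against normal), 0.14 (PTC against normal), 3.91 (ATC against PTC) and 1.05 (recurrent against normal), and with the mean of both probe sets 6.43, 1.88, 4.55 and 3.18. Without 1 array they ran from 8.73 to 8.96, 3.48 to 3.98, 4.84 to 5.33 and 4.90 to 5.85, and for recurrent against ATC from -3.91 to -2.96. Counts of pathway genes called by limma moved with the fit. With the compared groups alone they were 22 (ATC against normal, against 14), 20 (PTC against normal, against 8), 14 (ATC against PTC, against 4) and 0 (recurrent against ATC, against 4, with 6 at an unadjusted p under 0.05), and with array weights 31, 23 and 17 for the first 3 and 24 for recurrent against normal (against 14). Recurrent against ATC gave 1 call in JK arrays and 0 in bare-number arrays (5 at an unadjusted p under 0.05). Without 1 array the counts ran from 12 to 13 (ATC against normal), 4 to 8 (PTC against normal, with 4 without PTC 1 and 5 without PTC 2, 3 or 4), 1 to 4 (ATC against PTC, with 1 without PTC 4 and 2 without PTC 1, 2 or 3 or ATC 1), 2 to 6 (recurrent against ATC, with 2 without ATC 1, 2, 3 or 5 or recurrent tumour 1 or 7) and 11 to 15 (recurrent against normal). With 1421354_at the relations in recurrent tumours had r = 0.40 (MAPK output), -0.76 (epithelial), 0.72 (mitosis), -0.037 (macrophage) and 0.42 (cartilage), none past the threshold after adjustment, and cartilage gave 0.21 in bare-number tumours. The epithelial value within the 6 tumours with low means, -0.48, was an alternative chosen after seeing the data. Without 1 tumour r ran from 0.86 to 0.93 (MAPK output), -0.91 to -0.81 (epithelial), 0.68 to 0.98 (mitosis), -0.36 to 0.036 (thyroid, 0.036 without tumour 2), -0.34 to 0.79 (macrophage) and -0.45 to 0.13 (cartilage, 0.09 without tumour 5). The cause of these changes was not tested. No paired analysis was possible because titles number pools only among normal samples, and tumour titles carry no replicate number to match them. Limits are the signal of normal pools near the bottom of the scale, where log2 differences are compressed, and title series that hold all PTC in JK and no normal pool in bare-number arrays, so that group and title series cannot be told apart between bare-number tumours and normal pools.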
